A study of Rattus norvegicus with 16 samples.

Results

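The heat shock and chaperone genes are 10 rat genes picked by symbol: Hspa1b, Hsph1, Dnajb1, Hspb1, Hspa8, Hsp90aa1, Hspd1, Hspe1, Bag3 and Hspa5. Of these 10, the platform annotation named a probe for 8, out of 15037 genes with a named probe, and each of the 8 had 1 probe. Hspa1b and Dnajb1 named no probe and were not analysed here. Gene expression was measured on 16 Affymetrix arrays from male Wistar rats aged 8 to 10 weeks, 1 array for each of 4 brain regions under each of 4 treatments. The regions, taken by laser microdissection of frozen brain sections after Nissl staining, were both parts of the habenula, lateral (LHb) and medial (MHb), and a pair of hindbrain nuclei, the solitary nucleus (Sol) and the vestibular nucleus in its medial division (MVe). For 60 minutes the rats had received sevoflurane, an inhaled anesthetic, at 2.4%, or O2 without an anesthetic; propofol, an intravenous anesthetic, at 36 mg/kg/hr after a bolus of 10 mg/kg, or Intralipos, a 10% lipid emulsion given at the same rates as the vehicle. All groups breathed 40% oxygen at 6 L/min. The comparisons ask whether either anesthetic changed the chaperone genes against its own control, and how their levels differ between the regions.

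Chaperones hold unfolded proteins, refold them or pass them on for degradation. Under heat, oxidants or other stress, heat shock factor 1 binds heat shock elements upstream of its target genes and raises their transcription. Hspa5 answers mainly to a second system, the unfolded protein response of the endoplasmic reticulum, through ER stress elements. Neurons keep high levels of the constitutive chaperones, and inducible small heat shock proteins are better known from glia and blood vessels.

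In the GRCr8 assembly of RefSeq, Hsph1 lies at chr12:10427368-10446602, Hspb1 at chr12:26430640-26432301, Hspa8 at chr8:50080514-50084376 and Hsp90aa1 at chr6:135523604-135529687. Hspd1 lies at chr9:64073610-64084332, Hspe1 at chr9:64084327-64087415, Bag3 at chr1:192533460-192557281 and Hspa5 at chr3:38453016-38457475. The upstream sequences carry these elements. RefSeq's GRCr8 table held the 250 bases before 1 annotated start for 8 of the 10 genes, all but Hspa1b and Hsp90aa1. A heat shock element, written GAANNTTC or TTCNNGAA on either strand, was found in 7 of those 8 windows and in 13.5% of all 33469 windows. The ER stress element, CCAAT and CCACG with 9 bases between them on either strand, was found in 1 of the 8, that of Hspa5, and in 0.0657% of all windows. The letters TATAAA, on either strand, were in 0 of the 8 and in 12.9% of all. Windows of neighbouring genes can overlap, and a match of letters is not a measured site of binding. The stretches below were chosen because they belong to genes whose levels differed between regions in the results that follow. Capitals mark the element, and each runs 5′ to 3′ on the strand of the gene.
Bag3, 1 element, chr1:192533310-192533369, plus strand: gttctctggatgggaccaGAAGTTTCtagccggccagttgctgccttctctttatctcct
Hsph1, 3 elements of which 2 overlap, chr12:10427248-10427367, plus strand: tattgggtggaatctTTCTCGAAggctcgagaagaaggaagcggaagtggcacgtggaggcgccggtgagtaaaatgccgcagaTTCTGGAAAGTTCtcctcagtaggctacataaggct
Hspb1, 2 elements, chr12:26432392-26432451, minus strand: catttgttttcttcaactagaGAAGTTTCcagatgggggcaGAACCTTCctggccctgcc
Hspe1, 3 overlapping elements, chr9:64084257-64084286, plus strand: ctcggTTCTAGAACCTTCCGGAAggccccg
Hspa5, 1 ER stress element, chr3:38452866-38453015, plus strand: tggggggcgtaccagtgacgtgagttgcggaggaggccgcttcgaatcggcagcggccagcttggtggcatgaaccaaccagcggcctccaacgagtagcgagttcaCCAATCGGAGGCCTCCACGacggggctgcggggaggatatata
Hspd1 and Hspe1, which encode the mitochondrial chaperonin and its lid, are read in opposite directions, and the spans given above overlap at their 5′ ends. The Hspd1 window of that table is counted from a start inside the span of Hspd1, and it holds the Hspe1 run of heat shock elements as well. The ER stress element of Hspa5 began 43 bases before its start.

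The deposited values are log2 signals. A level of a probe was compared only with the same probe on other arrays, since probes differ in brightness. The arrays formed a pair of sets: the mean over all probes was 7.20 to 7.21 on the sevoflurane and O2 arrays and 6.97 to 6.99 on the propofol and Intralipos arrays, and levels across these sets cannot be told apart from treatment. Region markers went with most labels. Chat, the acetylcholine synthesis gene, averaged 6.29 ± 0.39 in LHb and 11.6 ± 0.45 in MHb, and Th, needed for catecholamine synthesis, averaged 11.1 ± 0.23 in Sol and 4.12 ± 0.26 in MVe (SD, n = 4 each). Of 3 measured LHb markers, 2 were called higher in LHb than in MHb and 1 lower. Gap43 averaged 14.9 ± 0.29 in LHb and 8.11 ± 0.53 in MHb. Gpr151 went against the label, with 14.0 ± 0.59 in LHb and 16.3 ± 0.22 in MHb. On the log2 scale, the summed signal of astrocyte markers (8 of 9 listed genes measured) was lowest in MHb, at 17.3 to 17.8, and highest in Sol, at 20.2 to 20.3, with LHb at 18.9 to 19.5 and MVe at 19.2 to 19.4. Summed choroid plexus and ependyma markers (8 of 9) ranged from 8.99 to 15.1 among the 4 Sol arrays and from 17.0 to 18.3 in MVe. In Sol they were 12.3 with sevoflurane against 15.1 with O2, and 13.4 with propofol against 8.99 with Intralipos. Both anesthetic pairs of Sol thus differed in these markers, and the part of this in the Sol differences of the chaperone genes was not tested. In bulk tissue, fewer cells of a type and less RNA per cell cannot be told apart.

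Negative control features, 1153 on each array, had medians of 4.57 to 5.04 and 95th percentiles of 8.09 to 9.34. Hspa8, Hsp90aa1, Hspa5, Hspe1, Hspd1 and Hsph1 were above that percentile on all 16 arrays. Bag3 was above the control median on 16 arrays and above the percentile on 5. Hspb1 was above the control median on 5 of 16 arrays only, so its values lie close to background.

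**Figure D1:**
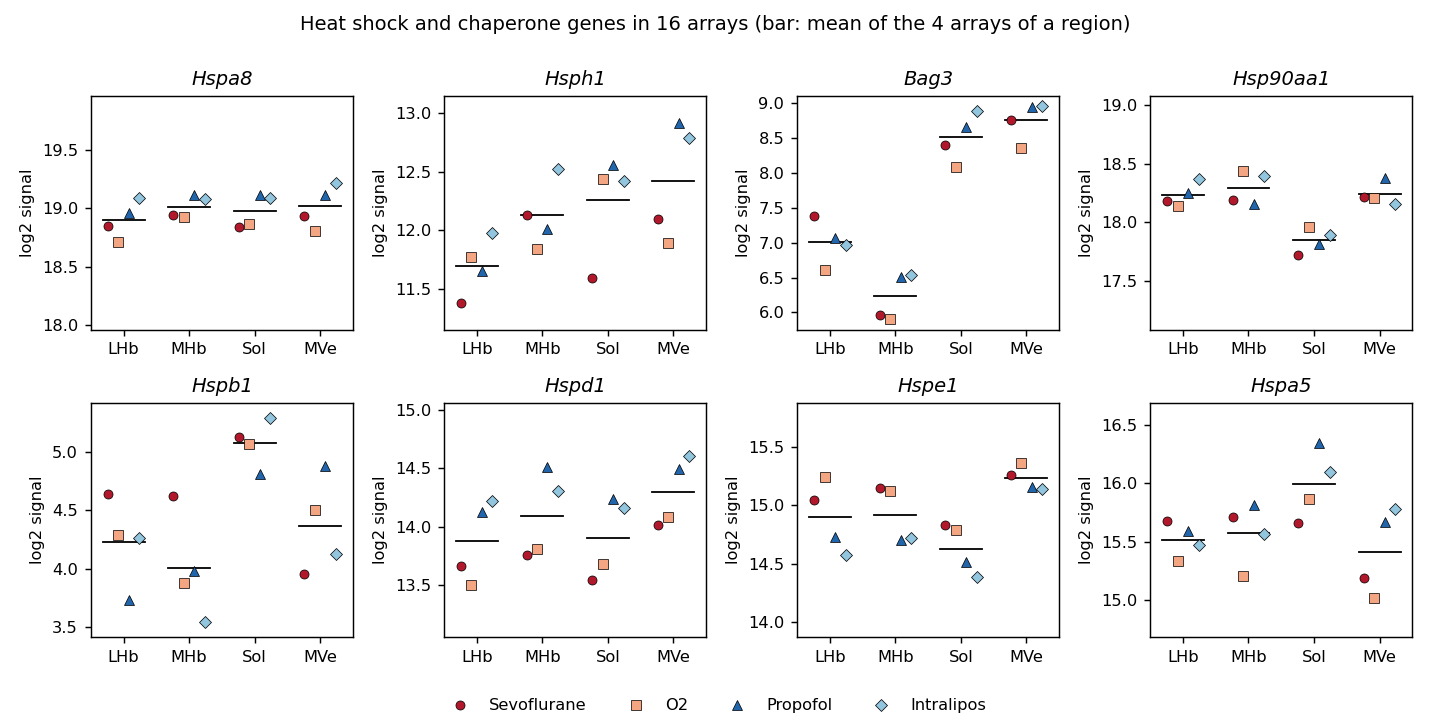
Log2 signal (vertical axis, a range of its own per gene) of the 8 measured genes on the 16 arrays, by region (horizontal axis), with 1 point per treatment and a bar at the mean of the 4 arrays of a region. Bag3 is the gene whose habenular points, 5.90 to 7.39, all lie below its hindbrain points, 8.09 to 8.96, while Hspa8 stays between 18.7 and 19.2 everywhere.

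Sevoflurane was first set against O2. None of the 8 genes passed the test in either direction, where 0% of the 15037 genes were called. The test was limma's linear model with region and treatment as terms, in which the 4 regions stand in for replicates of a treatment, with Benjamini-Hochberg adjustment over all genes and a threshold of 0.05. The labels do not tie arrays to rats. If the regions of a treatment came from 1 rat, the p-values of the anesthetic comparisons would be smaller than they should be. At an unadjusted p under 0.05 there were 751 genes, 4.99% of all, and 1 of the 8. In simulated arrays with the spread of all 15037 genes, genes drawn at random were changed together, 50 at each size up to 2 on the log2 scale. The fit recovered 6 of 50 genes changed by 0.5, 37 of 50 changed by 1.0 and 47 of 50 changed by 1.5. A gene changed alone meets a stricter adjusted threshold, so these rates do not give the chance of finding 1 changed chaperone gene.

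Bag3 was that 1 gene. It encodes a co-chaperone that frees clients from HSP70 and sends them to autophagy. Under sevoflurane its level was 7.39 in LHb, 5.97 for MHb, 8.41 for Sol and 8.76 for MVe, against 6.60, 5.90, 8.09 and 8.36 under O2. The sevoflurane array was the higher one in all 4 regions, by 0.06 in MHb and by up to 0.78 in LHb. The fitted difference was 0.39 ± 0.16 (SE), a fold of 1.31 with a 95% interval of 0.06 to 0.72 on the log2 scale, and its limma adjusted p was 0.975. Over the alternatives tried that p lay between 0.850 and 1.0, and without the LHb sevoflurane array the difference was 0.23. Of all genes, 13.6% had the same direction in all 4 regions, and Bag3 was the 1 of the 8 that did. For propofol against Intralipos the Bag3 difference was -0.04 ± 0.16, higher in 1 region and lower in 3. The difference of the 2 anesthetic effects was 0.44 ± 0.22 for Bag3, with a limma adjusted p of 0.991, and ran from 0.27 to 0.55 with 1 array left out. None of the 8 passed that contrast, in which 0.0133% of genes were called.

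Hspa5, the HSP70 of the endoplasmic reticulum, had the next largest positive difference. In the order LHb, MHb, Sol and MVe, its level was 15.68, 15.71, 15.66 and 15.19 under sevoflurane, against 15.33, 15.20, 15.86 and 15.02 under O2. Sevoflurane was higher in 3 regions and lower in Sol. The fitted difference was 0.20 ± 0.16, with a limma adjusted p of 0.989. With 1 array left out the Hspa5 difference ran from 0.10 (without the LHb sevoflurane array) to 0.32 (without that of Sol). With propofol the difference was 0.13 ± 0.16 (adjusted p = 0.921), also higher in 3 of 4 regions, the exception being MVe, and from 0.06 to 0.24 with 1 array left out.

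The cytosolic folding machine gave small values of mixed sign. Hspa8, the constitutive HSP70, differed by 0.06 ± 0.12 between sevoflurane and O2 and by -0.04 ± 0.12 between propofol and Intralipos. Hsp90aa1, the inducible cytosolic HSP90, differed by -0.11 ± 0.13 and -0.05 ± 0.13 in the same order of comparisons. Hsph1, an HSP110 that exchanges the nucleotide of HSP70, had 11.4, 12.1, 11.6 and 12.1 on the LHb, MHb, Sol and MVe arrays of sevoflurane, against 11.8, 11.8, 12.4 and 11.9 under O2. The sevoflurane arrays were lower in LHb and Sol and higher in MHb and MVe, and the mean difference was -0.19 ± 0.20. The propofol difference of Hsph1 was -0.14 ± 0.20, lower in both habenular regions and higher in both hindbrain nuclei.

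Hspb1, a small heat shock protein that holds unfolded clients without ATP, differed by 0.15 ± 0.24 for sevoflurane and 0.04 ± 0.24 for propofol. Its single-region differences ran from -0.54 to 0.74 and from -0.53 to 0.75, the widest of the 8, at a level near background. Of the mitochondrial pair, Hspd1 differed by -0.03 ± 0.13 and 0.02 ± 0.13, and Hspe1 by -0.06 ± 0.13 and 0.07 ± 0.13, for sevoflurane and for propofol. The 95% intervals for the pair reached no further than -0.33 and 0.35 on the log2 scale. Over the 8 genes the median difference was 0.02 for sevoflurane (all genes 0.01) and -0.01 for propofol (all genes 0.01), with 4 genes above 0 and 4 below in both comparisons.

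**Figure D2:**
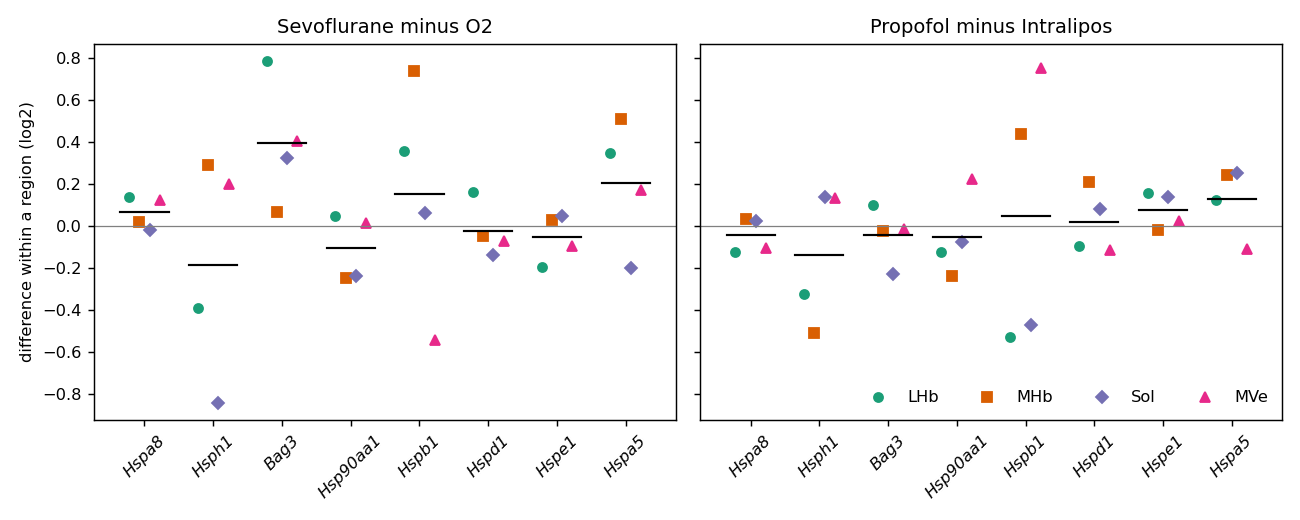
Difference between the anesthetic array and its control array in the same region (vertical axis, log2), for sevoflurane minus O2 and propofol minus Intralipos. Points are the 4 regions, bars their mean. Bag3 under sevoflurane is the gene with all 4 points above 0, from 0.06 to 0.78, and Hsph1 and Hspb1 spread on both sides of 0.

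Propofol against Intralipos also called none of the 8, where 0.02% of genes, 3 in all, were called and 1040 genes had an unadjusted p under 0.05. None of the 8 was among those 1040. In this comparison 15% of all genes, and 0 of the 8, had the same direction in the 4 regions. Whether the effect of either anesthetic differed between habenula and hindbrain was tested with a treatment term for each of the 2 (residual degrees of freedom: 6). None of the 8 passed for sevoflurane (0% of genes called) or for propofol (0% of genes called).

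Hspa1a, the inducible HSP70 gene that is a near-identical copy of Hspa1b, was not in the set but has a probe, for which RefSeq lists Hspa1b as a synonym. The probe may take up RNA of both copies, and it was above the control median on 10 of 16 arrays and above the 95th percentile of the controls on 0, so its differences are between values at background. Taken as LHb, MHb, Sol, MVe, its levels under propofol were 4.83, 4.33, 4.67 and 4.37, against 6.09, 4.55, 5.08 and 5.05 under Intralipos. Propofol was lower in all 4 regions, with a fitted difference of -0.65 ± 0.25 and a limma adjusted p of 0.646. Without the LHb Intralipos array, which had the highest Hspa1a value, it was -0.38. With sevoflurane the differences were 0.35 and 0.70 in LHb and MHb and -0.72 and -0.77 in Sol and MVe. That contrast between habenula and hindbrain was 1.27 ± 0.37, with a limma adjusted p of 0.866.

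Other genes of the chaperone system were counted in 10 lists with 96 distinct genes, of which 86 were measured. None of the 86 passed the test for sevoflurane or for propofol, and 2 and 6 of them had an unadjusted p under 0.05, which 4.99% and 6.92% of all genes had. For sevoflurane these were Creld2, an ER stress gene, at -0.36 ± 0.16, and Mt2A, a metallothionein that heat shock factor 1 can induce, at 0.54 ± 0.25. Without the LHb sevoflurane array Mt2A came to 0.24, and without that of Sol Creld2 came to -0.21. Creld2 was lower in all 4 regions under both anesthetics, with -0.35 ± 0.16 for propofol. For propofol the others were Hspa12a at 0.48 ± 0.16, Sel1l at 0.37 ± 0.14, Dnajb5 at 0.30 ± 0.13, Dnajb6 at 0.30 ± 0.14 and Hspa1a. The lowest limma adjusted p among the 86 was 0.982 for sevoflurane and 0.640 for propofol.
Among list members with the smallest p that had none under 0.05, sevoflurane gave -0.29 for Hspa13 and -0.24 for Hspa14 (HSP70 relatives), -0.24 for Hsp90b1 and -0.07 for Trap1 (HSP90 family), -0.18 for Dnajb9 and 0.15 for Dnajb5 (J-domain proteins, which hand clients to HSP70). It gave 0.38 for Hspb6 and -0.19 for Hspb2 (small heat shock proteins), 0.50 for Bag2 and 0.26 for Bag6 (co-chaperones), and 0.17 for Cct4 and -0.11 for Cct7 (the cytosolic chaperonin TRiC). The heat shock factors Hsf4 and Hsf2 stood at 0.15 and 0.06, Hmox1 at 0.26, and the mitochondrial Htra2 and Grpel1 at 0.47 and -0.17. None of these passed the test. With 1 array left out several of them moved by more than 1.5 times, such as Htra2 (0.16 to 0.64), Bag2 (0.32 to 0.78) and Bag6 (0.12 to 0.40).
The same ranks for propofol gave 0.22 for Hsp90b1, 0.18 for Trap1, -0.33 for Hspb2, -0.22 for Hspb6, 0.35 for Bag4, 0.24 for Bag5, 0.18 for Cct6a, -0.10 for Tcp1, 0.13 for Hsf1, -0.09 for Hsf4, -0.34 for both Serpinh1 and Mt2A, and 0.14 for Htra2. Hsp90b1, the HSP90 of the endoplasmic reticulum, stood at -0.24 ± 0.14 for sevoflurane and 0.22 ± 0.14 for propofol, neither past the test. With 1 array left out, propofol gave from -0.54 to -0.05 for Hspb6, from -0.45 to -0.11 for Hspb2 and from -0.48 to -0.15 for Mt2A.

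Between regions several of the genes did differ. Here the 4 treatments stand in for replicates of a region. Hspa8 passed in none of the region comparisons. Region calls were common among all genes, which the shares given with each comparison show.

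**Figure D3:**
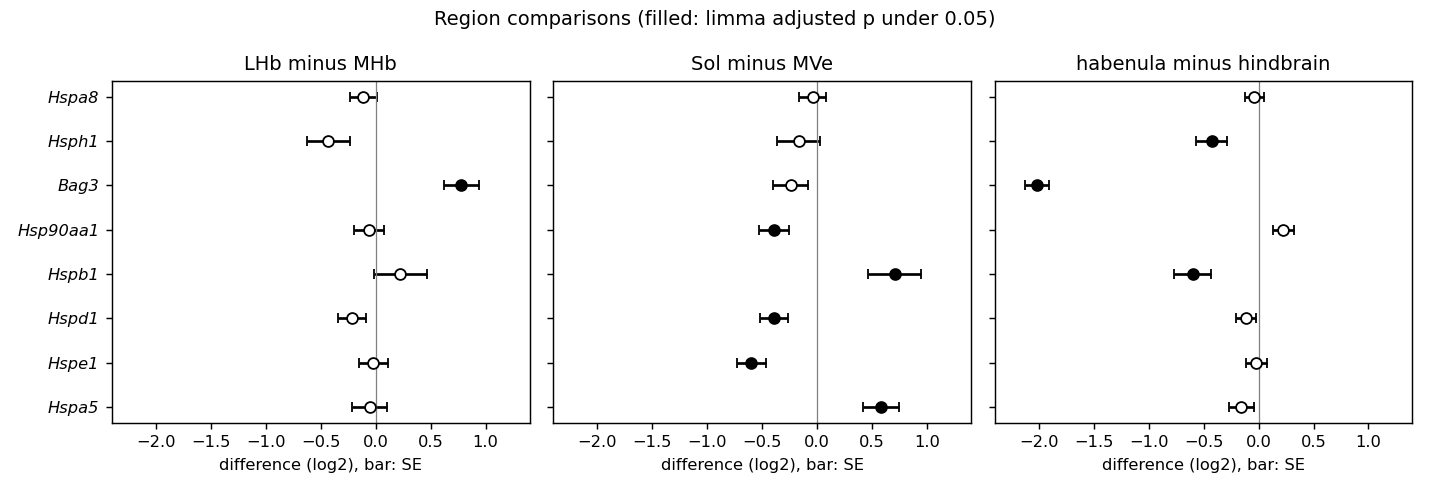
Fitted log2 difference (horizontal axis) with its standard error for the 8 genes in LHb minus MHb, Sol minus MVe and habenula minus hindbrain. Filled points have a limma adjusted p under 0.05. Bag3 lies at 0.78 in the left panel and at -2.02 in the right one, and 5 genes are filled in the middle panel.

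Bag3 had the largest region difference of the 8, and it was lower in the habenula. Its levels on the sevoflurane, O2, propofol and Intralipos arrays were 7.39, 6.60, 7.07 and 6.97 in LHb and 5.97, 5.90, 6.51 and 6.53 in MHb. In Sol they were 8.41, 8.09, 8.66 and 8.89, and in MVe 8.76, 8.36, 8.94 and 8.96. Every habenular array was below every hindbrain array, a separation that 3.98% of all genes showed and 1 of the 8. The fitted difference of habenula minus hindbrain was -2.02 ± 0.11, so Bag3 was 4.05-fold lower (limma adjusted p = 5.38e-11), with -1.94 on the sevoflurane and O2 arrays and -2.10 on the propofol and Intralipos arrays. Every habenular value of Bag3 was below the 95th percentile of the negative controls, and near background a fold can be understated.
Within the habenula Bag3 was higher in LHb than in MHb, by 0.78 ± 0.16 (1.72-fold, limma adjusted p = 0.000841), again without overlap of the arrays, which held for 22.4% of all genes and 1 of the 8. The difference was 1.06 on the sevoflurane and O2 arrays and 0.50 on the propofol and Intralipos arrays. On the 8 propofol and Intralipos arrays alone it did not pass (adjusted p = 0.145). Sol and MVe did not differ past the test, at -0.24 ± 0.16 (adjusted p = 0.267). The order of the means was MHb 6.23, LHb 7.01, Sol 8.51 and MVe 8.75, with the step between Sol and MVe inside the spread.
Astrocyte markers moved in the same direction: 7 of 8 were lower in habenula than in hindbrain, with a median of -2.05, and 7 of 8 were higher in LHb than in MHb, with a median of 2.48. Their part in the Bag3 difference was not tested. Bag3 ran from 6.60 to 7.39 in LHb and from 8.36 to 8.96 in MVe. Summed astrocyte levels ran from 18.9 to 19.5 in LHb and from 19.2 to 19.4 in MVe. Summed endothelial and mural levels ran from 13.95 to 14.18 in LHb and from 14.24 to 15.10 in MVe. Between LHb and MVe, the summed neuron and oligodendrocyte levels overlapped too. Those of blood cell, microglia, and choroid plexus and ependyma markers did not overlap. What part any cell type had in the Bag3 gap was not tested. Endothelial and mural markers were also lower in habenula, 7 of 8 with a median of -0.58, and higher in LHb than in MHb, 8 of 8 with a median of 1.17. For blood cell markers these were 5 of 5 (-2.21) and 4 of 5 (1.39), and for microglia markers 7 of 8 (-0.38) and 7 of 8 (0.58). Neuron markers were lower in habenula in 7 of 10 and split 5 and 5 between LHb and MHb. Oligodendrocyte markers were higher in habenula, 8 of 8, and choroid plexus and ependyma markers lower in LHb than in MHb, 8 of 8.

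Of the 8 genes, 1 was called higher (Bag3) and 0 lower in LHb against MHb, where 14.1% of all genes were called higher and 14.4% lower. Hsph1 was nearest to the threshold among the rest, at 11.38, 11.77, 11.65 and 11.98 in LHb and 12.13, 11.84, 12.01 and 12.52 in MHb on the sevoflurane, O2, propofol and Intralipos arrays. LHb was the lower one under all 4 treatments although the ranges overlap. The difference was -0.43 ± 0.20 with a limma adjusted p of 0.119, and ran from -0.55 to -0.29 with 1 array left out. With each array centred on its gene median, which shifts the median gene by -0.10, it was -0.53 and passed (adjusted p = 0.0373).

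In habenula against hindbrain, 0 of the 8 were called higher and 3 lower, where 18.3% of all genes were called higher and 19.8% lower. Beside Bag3 these were Hspb1 and Hsph1. Hsph1 averaged 11.9 in habenula and 12.3 in hindbrain, with ranges of 11.4 to 12.5 and 11.6 to 12.9. The difference was -0.43 ± 0.14 (limma adjusted p = 0.0206), and it came to -0.22 on the sevoflurane and O2 arrays, where it did not pass (adjusted p = 0.461), and to -0.63 on the propofol and Intralipos arrays. The call was lost without the Sol O2 array (adjusted p = 0.0591) and without the propofol array of LHb (0.0527), of MHb (0.0548) or of MVe (0.0571).
Hspb1 averaged 4.12 in habenula and 4.72 in hindbrain, a difference of -0.60 ± 0.17 (limma adjusted p = 0.00820). It was -0.31 on the sevoflurane and O2 arrays, not past the test there (adjusted p = 0.301), and -0.89 on the others. Hsp90aa1 averaged 18.27 in habenula and 18.04 in hindbrain, a difference of 0.22 ± 0.09 with an adjusted p of 0.0755. It passed with trended, robust variances (adjusted p = 0.00477), with genes below the median level left out (0.0380), with median centring (0.0186) and with quantile normalization (0.0344).

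Of the 3 region comparisons, Sol against MVe called the most of the 8 genes: 2 were called higher in Sol and 3 lower, where 19.3% of all genes were called higher and 16% lower. The lower ones were both mitochondrial chaperonin genes and Hsp90aa1, and the higher ones were Hspa5 and Hspb1. On the 8 sevoflurane and O2 arrays alone, or on the other 8 alone, 1 of the 8 passed. With arrays centred on their gene median, all genes shifted by -0.15 and the split of calls over all genes was 2223 higher and 3509 lower in place of 2901 higher and 2399 lower, while 4 of the 8 passed.

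Hspe1 showed the clearest difference. On the sevoflurane, O2, propofol and Intralipos arrays it had 14.8, 14.8, 14.5 and 14.4 in Sol and 15.3, 15.4, 15.2 and 15.1 in MVe. The regions did not overlap, which held for 25.7% of all genes and 2 of the 8. The difference was -0.60 ± 0.13 (1.52-fold lower in Sol, limma adjusted p = 0.00141), -0.50 on the sevoflurane and O2 arrays and -0.70 on the others, and it passed whichever of the 16 arrays was left out.
Hspd1, whose product forms the ring that the Hspe1 product closes, had 13.5, 13.7, 14.2 and 14.2 in Sol and 14.0, 14.1, 14.5 and 14.6 in MVe on the same arrays. Sol was lower under each treatment, but the ranges overlap, and the array sets differ in level, with 13.8 on average on the sevoflurane and O2 arrays and 14.3 on the propofol and Intralipos arrays. The difference was -0.39 ± 0.13 (limma adjusted p = 0.0236). The call was lost without the sevoflurane array of Sol (adjusted p = 0.0658) or MVe (0.0558), the MVe O2 array (0.0596), or the Intralipos array of Sol (0.0533) or MVe (0.0548), and with quantile normalization (-0.26, adjusted p = 0.142). Hspe1 shifted the opposite way between the sets, with 15.1 on the sevoflurane and O2 arrays and 14.7 on the propofol and Intralipos arrays.
Of the other genes of mitochondrial protein folding, 6 of 6 measured were below 0 in Sol against MVe, with a median of -0.42, and 2 were called lower, as 16% of all genes were. These were Dnaja3, a mitochondrial J-domain protein, at -1.02 ± 0.19, and Hspa9, the mitochondrial HSP70, at -0.38 ± 0.13. The median of all genes was -0.02.

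Hsp90aa1 had 17.7, 18.0, 17.8 and 17.9 in Sol and 18.2, 18.2, 18.4 and 18.2 in MVe on the sevoflurane, O2, propofol and Intralipos arrays, again without overlap. The difference was -0.39 ± 0.13 (limma adjusted p = 0.0297). It lost the call without the sevoflurane array of Sol (adjusted p = 0.0742) or MVe (0.0799), the propofol array of Sol (0.0717) or MVe (0.106), or the Intralipos array of Sol (0.0587). Sol was also below LHb and MHb, whose arrays ran from 18.1 to 18.4.

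Hspa5 was higher in Sol. On the sevoflurane, O2, propofol and Intralipos arrays it had 15.66, 15.86, 16.35 and 16.09 in Sol and 15.19, 15.02, 15.66 and 15.77 in MVe. Sol was the higher one under all 4 treatments, although the ranges overlap. The difference was 0.58 ± 0.16 (limma adjusted p = 0.00823), 0.66 on the sevoflurane and O2 arrays and 0.50 on the others, and it passed whichever array was left out. On either set of 8 arrays alone it did not pass (adjusted p = 0.0579 and 0.133).
Its partners in the endoplasmic reticulum divided. Of 20 measured genes of the unfolded protein response list, 8 were called higher in Sol and 4 lower, where 19.3% of all genes were called higher and 16% lower. The median of the 20 was 0.05. The higher ones were Hsp90b1 (1.06 ± 0.14, 2.08-fold), the disulfide isomerases Pdia3 (0.75 ± 0.15), Pdia4 (0.52 ± 0.18) and Pdia6 (0.50 ± 0.17), the lectin chaperone Calr (0.63 ± 0.15), the exchange factor Hyou1 (0.43 ± 0.16), Sel1l of the degradation machinery (0.40 ± 0.14) and the transcription factor Xbp1 (0.69 ± 0.15). The lower ones were Herpud1 (-1.01 ± 0.21), which acts in degradation, the amino acid enzyme Asns (-0.97 ± 0.17) and the transcription factors Atf4 (-0.72 ± 0.15) and Atf6 (-0.55 ± 0.16). Among the higher genes, 6 encode folding proteins, while Asns and Atf4 belong to the branch of the response that also answers to amino acid shortage. Hsp90b1 had 2 ER stress elements in its window. Hspa13, a microsomal HSP70 in another list, was also higher in Sol, by 0.93 ± 0.15.

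**Figure D4:**
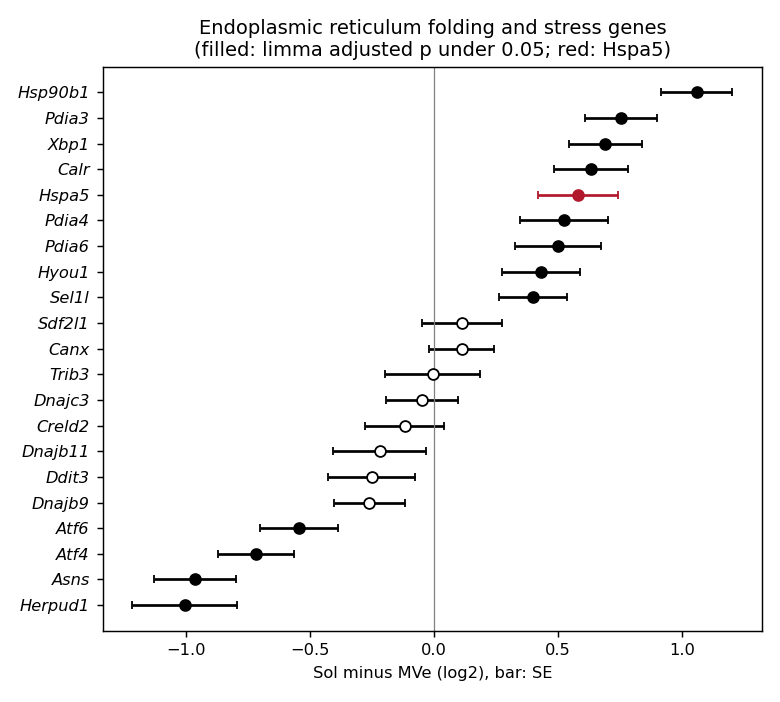
Sol minus MVe (horizontal axis, log2, with standard error) for Hspa5, in red, and 20 genes of the unfolded protein response list. Filled points have a limma adjusted p under 0.05. Hsp90b1 is at the top with 1.06, Hspa5 at 0.58, and Herpud1 at the bottom with -1.01.

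Hspb1 had 5.13, 5.07, 4.81 and 5.29 in Sol and 3.96, 4.50, 4.88 and 4.13 in MVe on the same 4 kinds of array. Sol was higher under 3 of 4 treatments, not under propofol. The difference was 0.71 ± 0.24 (limma adjusted p = 0.0279), at a level where the negative controls lie. It lost the call without the O2 (adjusted p = 0.0558) or Intralipos (0.111) array of Sol or the sevoflurane array of MVe (0.152, difference 0.45) or the Intralipos array of MVe (0.0772), and with median centring (0.55, adjusted p = 0.0811).
Cell type markers differed between these nuclei too, and their part in the differences of the chaperone genes was not tested. Oligodendrocyte markers were lower in Sol, 8 of 8 with a median of -2.66, and microglia markers higher, 8 of 8 with a median of 2.05. Astrocyte markers were higher in Sol (6 of 8 called, median 0.87), and choroid plexus and ependyma markers lower (7 of 8, median -1.32). Endothelial and mural markers were lower in Sol (6 of 8 called, median -0.84). Of 10 neuron markers, 2 were called higher in Sol and 4 lower, with a median of -0.37. Of 5 blood cell markers, 1 was called higher and 1 lower.

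The widest region differences among list genes were those of Hspb8 and Cryab, small heat shock proteins other than Hspb1. The list as a whole did not share them, with medians of 0.13 in LHb minus MHb, -0.02 in Sol minus MVe and 0.04 in habenula minus hindbrain. Hspb8 encodes the partner with which the Bag3 protein forms a complex for autophagy of clients. Its levels were 8.94, 9.06, 9.21 and 9.01 in LHb and 12.8, 12.8, 13.2 and 13.2 in MHb on the sevoflurane, O2, propofol and Intralipos arrays, and they ran from 8.69 to 9.09 in Sol and from 8.27 to 9.38 in MVe. MHb thus had the highest Hspb8 and the lowest Bag3. LHb minus MHb was -3.92 ± 0.17, or 15.2-fold lower in LHb (limma adjusted p = 4.62e-12), and habenula minus hindbrain was 2.17 ± 0.12, while the LHb values lie within the hindbrain range. Its upstream stretch held 1 heat shock element with the same letters as that of Bag3 and as the first one of Hspb1.
Hspb8, 1 element, chr12:45837248-45837307, plus strand: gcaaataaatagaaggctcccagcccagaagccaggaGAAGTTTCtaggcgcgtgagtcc
Cryab, a crystallin abundant in oligodendrocytes, was 2.11 ± 0.20 higher in LHb than in MHb and 3.93 ± 0.20 lower in Sol than in MVe. Its region means were 10.9 for LHb, 8.80 for MHb, 7.17 for Sol and 11.1 for MVe. The oligodendrocyte markers had medians of the same sign in both comparisons, 1.82 and -2.66, and their part was not tested. Hspb6 was 2.03 ± 0.15 lower in habenula than in hindbrain and 1.01 ± 0.22 higher in Sol than in MVe. Hspb3 was lower in Sol by 0.46 ± 0.17. Of the 7 measured, 1 was called higher and 1 lower in LHb, 1 higher and 2 lower in Sol, and 2 higher and 1 lower in habenula. Over all genes the shares called higher and lower were 14.1% and 14.4%, 19.3% and 16%, and 18.3% and 19.8% in the same order of comparisons.

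**Figure D5:**
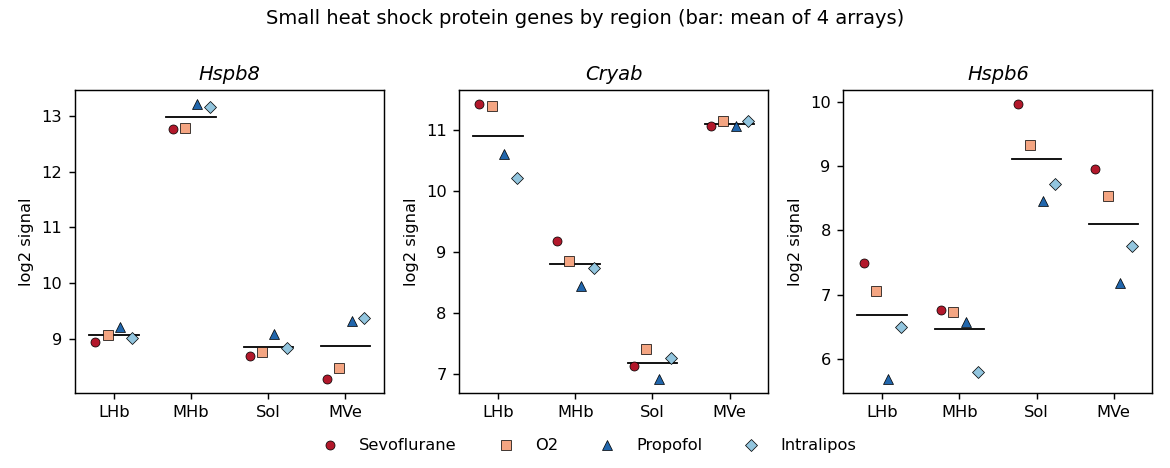
Log2 signal (vertical axis, a range of its own per gene) of Hspb8, Cryab and Hspb6 by region, with 1 point per treatment and a bar at the mean. Hspb8 stands at 12.8 to 13.2 in MHb and at most at 9.38 elsewhere, Cryab is lowest in Sol, and Hspb6 is higher in Sol and MVe than in LHb and MHb on average.

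In the remaining families genes were called in both directions. Of all genes, 14.1% were called higher and 14.4% lower in LHb against MHb, 19.3% and 16% in Sol against MVe, and 18.3% and 19.8% in habenula against hindbrain. The lists are small, and their counts below, several of them near these shares, are descriptions without a test of the list. Among list genes, 14 of 22 calls in LHb against MHb, 31 of 39 in Sol against MVe and 33 of 41 in habenula against hindbrain held whichever array was left out. Of 10 measured HSP70 and HSP110 relatives, 2 were called higher and 1 lower in LHb against MHb, 2 higher and 3 lower in Sol against MVe, and 3 higher and 3 lower in habenula against hindbrain. Hspa4, an HSP110 relative, was 0.54 ± 0.13 lower in LHb and 0.64 ± 0.09 higher in habenula, while its relative Hspa4l was 0.61 ± 0.14 higher in LHb, 1.54 ± 0.14 lower in Sol and 0.49 ± 0.10 lower in habenula. Hspa12a was 2.03 ± 0.16 lower in Sol and 0.74 ± 0.11 lower in habenula. In habenula, Hspa14 (0.80 ± 0.13) and Hspa13 (0.44 ± 0.10) were higher and Hspa2 (-0.39 ± 0.14) was lower. Hspa1a averaged 5.22 in LHb and 4.51 in MHb, both where the negative controls lie, a difference of 0.71 ± 0.25 (limma adjusted p = 0.0396). It ran from 0.44 to 0.94 with 1 array left out, at 0.44 without the LHb Intralipos array. The Hspa1a call was lost without that array, the LHb propofol or sevoflurane array, or the MHb Intralipos or O2 array.
In the HSP90 family, Hsp90b1 was higher in Sol, as given, and 0.42 ± 0.10 lower in habenula, the 1 call of 3 genes in that comparison. Hsp90ab1, the constitutive cytosolic HSP90, passed in none of the region comparisons.
Of 14 J-domain proteins, 0 were called higher and 3 lower in LHb, 2 higher and 4 lower in Sol, and 4 higher and 1 lower in habenula. Dnajb5 was 1.03 ± 0.13 lower in LHb, 0.65 ± 0.13 higher in Sol and 1.45 ± 0.09 higher in habenula, with a mean of 9.75 in MHb, its highest. Dnaja4 was lower by 0.65 ± 0.15 in LHb, by 0.93 ± 0.15 in Sol and by 0.52 ± 0.11 in habenula. Dnajb14 was 0.52 ± 0.15 lower in LHb. In Sol, Dnajb2 (-0.58 ± 0.14) and Dnajc7 (-0.64 ± 0.13) were also lower and Dnajc10 (0.60 ± 0.17) was higher. In habenula, Dnaja2 (0.33 ± 0.12), Dnajb4 (0.44 ± 0.10) and Dnajc10 (0.51 ± 0.12) were higher.

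Of 16 co-chaperones measured, 3 were called higher in Sol and 7 lower, where 19.3% of all genes were called higher and 16% lower, and 6 did not pass. Their median was -0.40, against -0.02 for all genes. Bag1, an HSP70 exchange factor of the same family as Bag3, was 1.74 ± 0.18 lower in Sol, 0.83 ± 0.18 higher in LHb and 0.49 ± 0.12 lower in habenula. Bag4 was 1.74 ± 0.20 higher in Sol and 0.48 ± 0.14 higher in habenula, so the BAG family did not share 1 region pattern. The HSP90 helpers Ahsa1 (-0.77 ± 0.17), Stip1 (-0.53 ± 0.15), Cdc37 (-0.46 ± 0.15) and Chordc1 (-0.70 ± 0.18) were lower in Sol, as were Bag5 (-0.64 ± 0.14) and Hspbp1 (-0.74 ± 0.20). Hsp90aa1 had the same direction. Fkbp5 (0.90 ± 0.19), which binds HSP90 with steroid receptors, and Sgta (0.90 ± 0.19) were higher in Sol.
In LHb, St13 (0.68 ± 0.16) was higher and Fkbp4 (-0.49 ± 0.18) and Hspbp1 (-0.55 ± 0.20) were lower, which with Bag1 made 2 higher and 2 lower. In habenula, 4 were higher and 5 lower: Fkbp5 (0.90 ± 0.13), Chordc1 (0.60 ± 0.12), Fkbp4 (0.32 ± 0.12) and Bag4 were higher, and Bag1, Bag2 (-0.59 ± 0.17), Bag6 (-0.36 ± 0.12), Cdc37 (-0.33 ± 0.11) and Stub1 (-0.36 ± 0.11) were lower. Stub1 is the ubiquitin ligase that marks HSP70 clients.

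Of the 8 subunits of the cytosolic chaperonin TRiC, 4 were called higher in the habenula and 0 lower, where 18.3% of all genes were called higher and 19.8% lower: Cct5 (0.56 ± 0.09), Cct6a (0.46 ± 0.11), Cct4 (0.41 ± 0.11) and Cct7 (0.26 ± 0.09). The other 4, Cct2, Cct3, Cct8 and Tcp1, did not pass. The median of the 8 was 0.28, and that of all genes -0.01. Cct6a was also 0.57 ± 0.16 lower in LHb, the 1 subunit called there, and 0.65 ± 0.16 higher in Sol, where Cct5 was 0.40 ± 0.13 lower.
Of the 4 genes in the heat shock factor list, Hsf2 (0.46 ± 0.11) and Hsbp1 (0.28 ± 0.09), which encodes an inhibitor of heat shock factor 1, were higher in habenula. Hsbp1 was higher in Sol (0.46 ± 0.13), and Hsf1, the main stress factor, was 0.51 ± 0.19 lower in LHb.
Other targets of heat shock factors, 6 of 9 measured, were called as follows. In LHb, Rgs2 (3.63 ± 0.16), Serpinh1, the collagen chaperone (1.24 ± 0.17), and Hmox1 (0.45 ± 0.16) were higher and Mt1 (-2.29 ± 0.22) was lower. In Sol, Hmox1 (1.21 ± 0.16) was higher. In habenula, Mt2A (-1.17 ± 0.18), Serpinh1 (-0.59 ± 0.12) and Hmox1 (-0.52 ± 0.11) were lower. Rgs2 and the metallothioneins have many other inducers.
Unfolded protein response genes, 20 measured, had 3 called higher and 1 lower in LHb: Sel1l (0.71 ± 0.14), Pdia6 (0.69 ± 0.17) and Ddit3 (0.65 ± 0.18) were higher and Asns (-1.30 ± 0.17) lower. In habenula, Xbp1 (0.70 ± 0.10), Atf4 (0.59 ± 0.11) and Asns (0.57 ± 0.12) were higher, and Pdia6 (-0.56 ± 0.12), Sel1l (-0.52 ± 0.10), Ddit3 (-0.45 ± 0.12), Herpud1 (-0.42 ± 0.15) and Hsp90b1 were lower. In the mitochondrial list, Lonp1 (-0.49 ± 0.13) was lower in habenula and none passed between LHb and MHb.

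Pattern likeness was computed for Hspa5 as Pearson's r over the 16 arrays after subtraction of the mean of each region within its array set. This leaves 8 differences between an anesthetic and its control, which may share rats, since the labels do not tie arrays to rats. The 5 most like genes were Tmem37 (0.954), Firrm (0.954), Cd53 (0.930), Smc1a (0.925) and Ubqln5 (0.924). Over all genes the middle 95% of r ran from -0.675 to 0.681, and no p is given, since the 5 were picked as the highest of 15037. Among the measured genes of the set, r with Hspa5 was 0.467 for Hspa8, 0.428 for Hspd1, 0.340 for Bag3, 0.198 for Hspb1, 0.081 for Hsph1, -0.144 for Hspe1 and -0.461 for Hsp90aa1. Among ER genes it was 0.339 for Pdia4, 0.279 for Hyou1, 0.234 for Hsp90b1, 0.155 for Pdia6, 0.036 for Sdf2l1 and -0.225 for Creld2. All of these lay inside the middle 95% of all genes. For Hspa1b no likeness could be computed, as it had no probe.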

How the data were processed

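Each of the 16 arrays held 1 region under 1 treatment. Per the submitters' processing notes, the authors used Expression Console (version 1.3.0). The values they deposited, log2 signals with 1 value for a probe set (called a probe here), lay between 2.469 and 19.93, and that range is the basis for the log2 scale. How probes were summarized, and on which build, is not stated in these sources. Probes were named through the platform annotation. Control features (1646) and probes without a symbol (8139) were left out, and the brightest probe was kept, which gave 15037 genes. No filter or further normalization was applied.

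Contrasts were fitted with limma 3.58.1 in R 4.3.3 (lmFit, eBayes, region plus treatment, 9 residual degrees of freedom, two-sided, Benjamini-Hochberg over all genes, threshold 0.05), after tests on simulated data. Errors after ± are moderated standard errors unless named SD. Nothing in the labels says that arrays came from separate rats, so p-values may measure partly technical spread. Arrays limit precision by their number. Promoter letters were searched in RefSeq GRCr8 windows with Python 3.11.15, and figures drawn with matplotlib 3.10.9.

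The rule for named genes took the 8 measured genes and, from each list, any gene past the threshold and the 2 with the smallest p. The members, lists and tests were chosen with earlier results of these data known. The alternatives tried were region within array set as a block, trended and robust variances, all probes, a filter on dim genes, the mean of a gene's probes, median centring, quantile normalization, 1 array set alone and leaving out each array.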

Additional observations from a re-analysis of the deposited data

Results flagged for a closer look

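Among 48 groups of 4 values tested for an outlying one (16 groups of differences within regions and 32 groups of levels within a region), 1 was singled out, where chance would give about 1 in 20. Hsph1 in Sol was 11.59 on the sevoflurane array, against 12.4 on the O2 array, 12.6 on the propofol array and 12.4 on the Intralipos array. Its gap to the nearest value was 0.858 of the whole range, above Dixon's 95% critical value for 4 samples. That group of 4 mixes both array sets, whose levels cannot be told apart from treatment. The Sol difference of sevoflurane minus O2 for Hsph1, -0.84, also uses the Sol O2 array. Its 12.44 was the highest Hsph1 value of the sevoflurane and O2 arrays, so which Sol array is the unusual one cannot be told. Without the Sol sevoflurane array the Hsph1 difference of sevoflurane minus O2 over the regions was -0.04 instead of -0.19.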

How the results depend on the processing

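Of the 192 counts of the 8 genes past the test under alternatives, 183 were within 1.5 times the reported count. In every comparison of anesthetic effects the reported count was 0 and stayed 0, which was scored as unchanged. The 9 counts that moved were all of region comparisons, so the share of 183 does not measure robustness. Some alternatives could hardly move a count. Each of the 8 genes has 1 probe, so the mean of a gene's probes is that probe. Leaving out an array of the other set does not change an anesthetic difference. For LHb minus MHb the count was 2 with arrays centred on their gene median (Hsph1 was added) and 0 on the propofol and Intralipos arrays alone. For Sol minus MVe it was 1 on the sevoflurane and O2 arrays alone (Hspb1) and 1 on the propofol and Intralipos arrays alone (Hspe1), fits with fewer samples, and it ran from 2 to 5 when each array was left out in turn. For habenula minus hindbrain it was 1 (Bag3) on the sevoflurane and O2 arrays alone. Centring on the gene median gave 1819 genes higher and 2920 lower in LHb minus MHb, where 2119 and 2170 were called as deposited. Hspb1 dropped out when dim genes were left out. Over all genes, sevoflurane minus O2 called 0 as reported, 2 with trended, robust variances and 0 to 8 with 1 array left out (8 without the LHb sevoflurane array), none of them among the 8 genes. Propofol minus Intralipos called 3, and 0 to 5 with 1 array left out, and the difference of the effects called 2, 4 with trended, robust variances and 0 to 4 with 1 array left out. On the propofol and Intralipos arrays alone 2714 genes were called in LHb minus MHb, 3233 in Sol minus MVe and 3552 in habenula minus hindbrain, where 4289, 5300 and 5736 were called on 16 arrays, and LHb minus MHb called 2721 on the sevoflurane and O2 arrays alone.

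No call of the 8 genes changed direction. Small differences that had passed no test changed sign, and the cause was not tested. For propofol minus Intralipos, quantile normalization gave 0.0298 for Hspa8 and -0.0284 for Hspd1. With 1 array left out, sevoflurane minus O2 ran from -0.0906 to 0.0050 for Hspe1, from -0.0453 to 0.408 for Hspb1, from -0.0712 to 0.0017 for Hspd1, from -0.0398 to 0.145 for Hsf2 and from -0.184 to 0.0290 for Trap1. Propofol minus Intralipos then ran from -0.155 to 0.0303 for Bag3, from -0.117 to 0.0052 for Hsp90aa1, from -0.0336 to 0.0644 for Hspd1, from -0.213 to 0.236 for Hspb1, from -0.270 to 0.0421 for Hsf4 and from -0.0014 to 0.325 for Htra2. Of 678 values of the 8 genes under alternatives, 628 kept direction and side of the threshold, 31 lost the call, 5 gained it and 14 changed sign. The 628 include values that could not change, from the mean of 1 probe and from arrays of the other set left out, so their share does not measure robustness. Among the called list genes no alternative changed a sign, and 3, 8 and 6 calls were lost with another scaling in LHb minus MHb, Sol minus MVe and habenula minus hindbrain. Calls of list genes lost when 1 array was left out were Cct6a, Ddit3, Dnajb14, Fkbp4, Hmox1, Hsf1, Hspa1a and Hspbp1 in LHb minus MHb, Cct5, Cdc37, Hspa9, Hspb3, Hyou1, Pdia4, Pdia6 and Sel1l in Sol minus MVe, and Bag6, Cct7, Cdc37, Dnaja2, Fkbp4, Herpud1, Hsbp1 and Hspa2 in habenula minus hindbrain. No paired analysis was possible because the labels tie no arrays to a rat, and region, already a term of the fit, within array set as the block changed no count of the 8 genes. With 1 array for each region and treatment, the number of arrays limits the precision.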
